A study of Mus musculus with 7 samples.

Results

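The acinar enzyme and acinar factor genes described here are 9 genes of the exocrine pancreas, measured in the open chromatin of sorted islet endocrine cells. Of them 7 encode digestive enzymes (Cpa1, Cpb1, Ctrb1, Cela2a, Cela3b, Cel, and Pnlip) and 2 encode transcription factors (Ptf1a and Rbpjl). They were chosen by name, from 21911 protein-coding genes, and every ATAC-Seq peak that overlaps a gene body or the 10 kb on either side was collected. These windows span 290 kb in all and held 124 of the 1190565 peaks of the 7 deposited peak lists, of which 57 were in a single list. All 9 genes had a peak in the window of at least 3 libraries, so none is left out of the account that follows.

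ATAC-Seq uses the Tn5 transposase to insert adapters where DNA is not packed away, and a peak is a stretch with more insertions than its surroundings. Alpha, beta, and delta cells were isolated by FACS from islets of healthy triple transgenic mice, pooled by sex. All carried mIns1-H2b-mCherry, in which an Ins1 promoter drives a nuclear red label in beta cells, together with Rosa-LSL-YFP, which is switched on by Cre from Gcg-Cre for alpha cells or from Sst-Cre for delta cells. There were 2 alpha, 3 beta, and 2 delta biological replicates, labelled as such, with no untreated or acinar control library among them. The labels do not say which of the 2 crosses each beta library came from, and the labels give no age. The methods of the study state that different endocrine cell types came from the same animals. Given the crosses, this can hold for beta cells with either alpha or delta cells, and the labels do not show which libraries share animals. The tests below treat all 7 libraries as independent.

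Acinar cells make up most of the pancreas and secrete digestive enzymes, most of them as inactive precursors, into the ducts. Ptf1a, a basic helix-loop-helix protein, forms the PTF1 complex with a second helix-loop-helix protein and with Rbpj in the embryo or its relative Rbpjl in mature acinar cells, and this complex binds acinar enzyme promoters at a paired site made of an E-box and a TC-box. Endocrine and acinar cells descend from the same pancreatic progenitors, and mature islet cells do not use the acinar program. Acinar cells lie directly against the islets in the tissue.

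The promoters below are shown because they hold the letters of such a paired site, whose coverage by peaks is given below them. They are RefSeq sequences of build GRCm38.p6, 5′ to 3′ on the strand of the gene, from 250 bases before the RefSeq start to 50 after it. Capitals mark an E-box (CANNTG) and TTCCC, searched on both strands with a gap of 4 to 6 or 14 to 16 bases between them. On the opposite strand these read CANNTG and GGGAA. Promoters of all 9 genes were found in the RefSeq table, and 4 of the 9 held the pattern, against 758 of 32851 promoters (2.31%). The pattern was settled after the promoters of these genes had been read, so the count describes them and tests nothing. The Cpa1 promoter is chr6:30638968-30639267 on the plus strand, and its match has a gap of 16 bases and runs from 19 bases upstream of the start to 7 past it. The Cel promoter is chr2:28563354-28563653 on the minus strand, with a gap of 16, 60 to 86 bases upstream. The Ctrb1 promoter is chr8:111690961-111691260 on the minus strand, with a gap of 5, 190 to 205 bases upstream. The Rbpjl promoter is chr2:164402944-164403243 on the plus strand, and has 2 E-boxes that share a single GGGAA, with gaps of 5 and 16, between 77 and 103 bases upstream.
Cpa1 promoter: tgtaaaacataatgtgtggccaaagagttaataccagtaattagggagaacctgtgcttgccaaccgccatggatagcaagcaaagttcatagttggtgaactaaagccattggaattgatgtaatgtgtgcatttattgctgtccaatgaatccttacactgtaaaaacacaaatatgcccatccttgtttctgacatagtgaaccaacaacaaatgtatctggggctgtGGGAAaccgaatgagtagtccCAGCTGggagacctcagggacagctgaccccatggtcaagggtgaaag
Cel promoter: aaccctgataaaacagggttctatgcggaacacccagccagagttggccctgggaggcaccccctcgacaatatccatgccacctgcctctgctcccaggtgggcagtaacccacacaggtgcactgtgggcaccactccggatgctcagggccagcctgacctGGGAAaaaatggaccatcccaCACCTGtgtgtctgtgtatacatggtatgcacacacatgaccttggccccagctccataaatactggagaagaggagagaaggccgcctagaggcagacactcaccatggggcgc
Ctrb1 promoter: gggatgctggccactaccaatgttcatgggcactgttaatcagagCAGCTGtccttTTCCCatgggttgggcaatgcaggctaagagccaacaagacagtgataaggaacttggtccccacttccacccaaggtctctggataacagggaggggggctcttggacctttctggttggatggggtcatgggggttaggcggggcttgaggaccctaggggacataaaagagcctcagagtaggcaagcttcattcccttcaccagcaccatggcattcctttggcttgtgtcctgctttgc
Rbpjl promoter: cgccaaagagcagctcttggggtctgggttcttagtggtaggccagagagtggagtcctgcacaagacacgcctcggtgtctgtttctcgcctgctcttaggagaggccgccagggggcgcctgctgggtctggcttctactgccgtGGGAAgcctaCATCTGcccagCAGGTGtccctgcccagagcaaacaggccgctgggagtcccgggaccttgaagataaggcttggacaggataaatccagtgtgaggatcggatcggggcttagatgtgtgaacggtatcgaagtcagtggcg
Of these 4 paired sites, those of Cpa1, Cel, and Ctrb1 were covered by no peak of any library. The site of Rbpjl lay inside a peak of both delta libraries and of no other.

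The lists differ in length, and this limits how they can be compared. The alpha lists held 131151 and 111961 peaks, the beta lists 518503, 91089, and 103935, and the delta lists 158066 and 75860. All of them reach down to a -log10 p of 2.01, and in beta 1, which stands apart, 84.6% of the peaks are tied at a -log10 q of 0.0774, the lowest value of that list. Peaks that reached a -log10 q of 2 were therefore counted as well, and they numbered between 25903 in beta 1 and 52057 in alpha 1. The sort was checked against the hormone genes. Gcg had a peak within 1 kb of its start in both alpha libraries (-log10 q 16.8 and 16.5), in delta 2 (2.40), and in no beta library. Sst had such a peak in both delta libraries, at 0.951 and 0.966, and in beta 1, at 2.34. The Ins1 start had a peak in all 7 libraries, highest in beta 1 (7.34) and beta 3 (6.39), with delta 1 (3.42) above beta 2 (1.82). The Ins2 start had a peak in beta 3 alone (1.43). Gcg thus followed the labels more closely than the other hormone genes did. For the 3 beta libraries the names of the files and the labels disagree on the cell type, and the labels were followed.

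Around the starts of the 9 genes there was little. A peak within 1 kb of the annotated 5′ end was present in at least 2 replicates for 1 of the 9 genes in alpha cells (Ptf1a), for 0 in beta cells, and for 1 in delta cells (Rbpjl). Among all protein-coding genes the same was true of 56.8%, 56.1%, and 54.1%. Where the start peak had to reach a -log10 q of 2 the counts were 0, 0, and 0, against 51.4%, 41.4%, and 48.3% of all genes. Cpa1, Cpb1, and Cela2a had no such peak in any library, which was so for 17.3% of all genes. In all 9 genes and 7 libraries, the peak of alpha 2 at the Rbpjl start was the only one at a 5′ end to reach a -log10 q of 2, at 2.03. Delta 1 and delta 2 had a peak at the same start just below this line, at 1.91 and 1.93. Thus 1 of the 9 genes had a start peak that reached 2 in at least 1 library, against 61.9% of all genes.

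Across the wider windows, 22 of the 124 peaks reached a -log10 q of 2 and 8 reached 3. The windows held 18 peaks in each alpha library, 57, 4, and 9 in the beta libraries, and 14 and 4 in the delta libraries. The mean was 18 ± 0 in alpha cells (SD, n = 2), 23.3 ± 29.3 in beta cells (SD, n = 3), and 9 ± 7.07 in delta cells (SD, n = 2), and without beta 1 the beta mean was 6.5. The spread among the beta replicates exceeded every difference between cell types. Of peaks that reached a -log10 q of 2 there were 9 and 6 in the alpha libraries, 0, 2, and 2 in the beta libraries, and 2 and 1 in the delta libraries. Here both alpha libraries lay above all 5 others. Over all protein-coding genes they did so too, with 3.15 and 3.09 per 100 kb against at most 2.92. At least 2 replicates had such a window peak for 3 of the 9 genes in alpha cells (Ctrb1, Pnlip, and Rbpjl) and for 0 in beta and in delta cells. Of all genes 72.2%, 64.3%, and 68.9% had one, a share not adjusted for window length, and member windows were shorter on average. For Ctrb1 and Rbpjl these peaks of alpha 1 and alpha 2 lay at different places. In delta cells the best peaks of Cpb1 and of Rbpjl were just below the line, at 1.91 in delta 1 and 1.93 in delta 2. Peaks that reached a -log10 q of 2 came to 2.59 ± 0.732 per 100 kb of window in alpha cells (SD, n = 2). They came to 0.460 ± 0.398 in beta cells (SD, n = 3) and 0.517 ± 0.244 in delta cells (SD, n = 2). In sorted cells taken in bulk, a weak opening in all cells and a strong one in a few cells of another type cannot be told apart. The study's quality sheet lists fewer unique reads for its beta 1, beta 2, beta 3, and delta 2 than for either alpha library. The fewest are given for beta 1, and delta 1 has more than either alpha library. The sheet gives fewer sorted cells for delta 2 than for the rest. It lists a further beta library that was not analysed here, and does not state that its numbers are those of the labels. The part of depth in these counts was not tested. No test was made of this sum, since the genes were chosen with results of these data known.

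**Figure D1:**
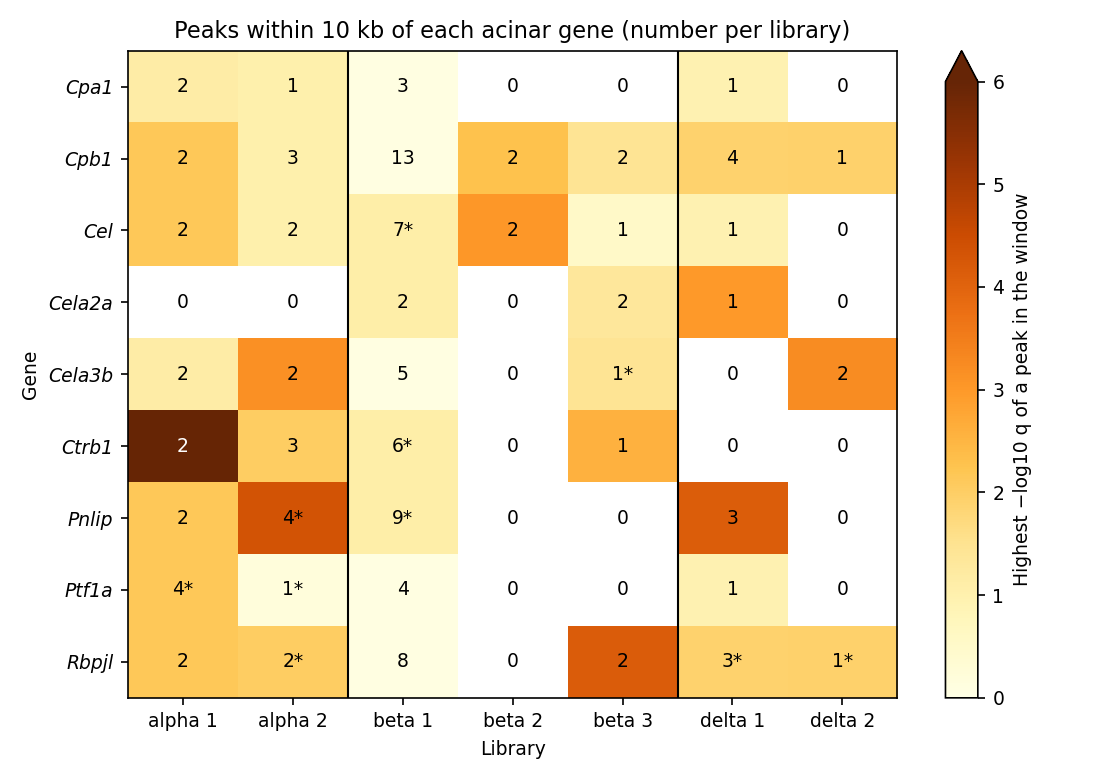
Number of peaks in the window of each gene (rows) in each library (columns), coloured by the highest -log10 q of a peak in that window (white, no peak; the colour scale stops at 6). An asterisk marks a peak within 1 kb of the annotated 5′ end. Beta 1 has the most peaks, 57, at low -log10 q, and the darkest square is Ctrb1 in alpha 1.

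The order of the libraries depended on where the line was drawn. The q-values of a list come in steps, and the commonest value near 2 was 2.16 in alpha 1, with 8.32% of the list, and 2.03 in alpha 2, with 7.58%. It was 1.91 in delta 1 (10.5% of the list), 1.93 in delta 2 (21.8%), and 1.82 in beta 2 (29.3%). The line at 2 therefore takes in a step of the alpha lists and leaves out the matching step of these 3 lists. With a line at 1.8, chosen after this was seen, the counts were 9 and 6 in alpha, 0, 4, and 2 in beta, and 7 and 4 in delta cells. Delta 1 then lay above alpha 2, and the groups overlapped. Per 100 kb these counts were 3.10 and 2.07, 0, 1.38, and 0.690, and 2.41 and 1.38, against 3.24 and 3.20, 1.71, 2.88, and 2.44, and 3.65 and 3.39 for all protein-coding genes in the same libraries.

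**Figure D2:**
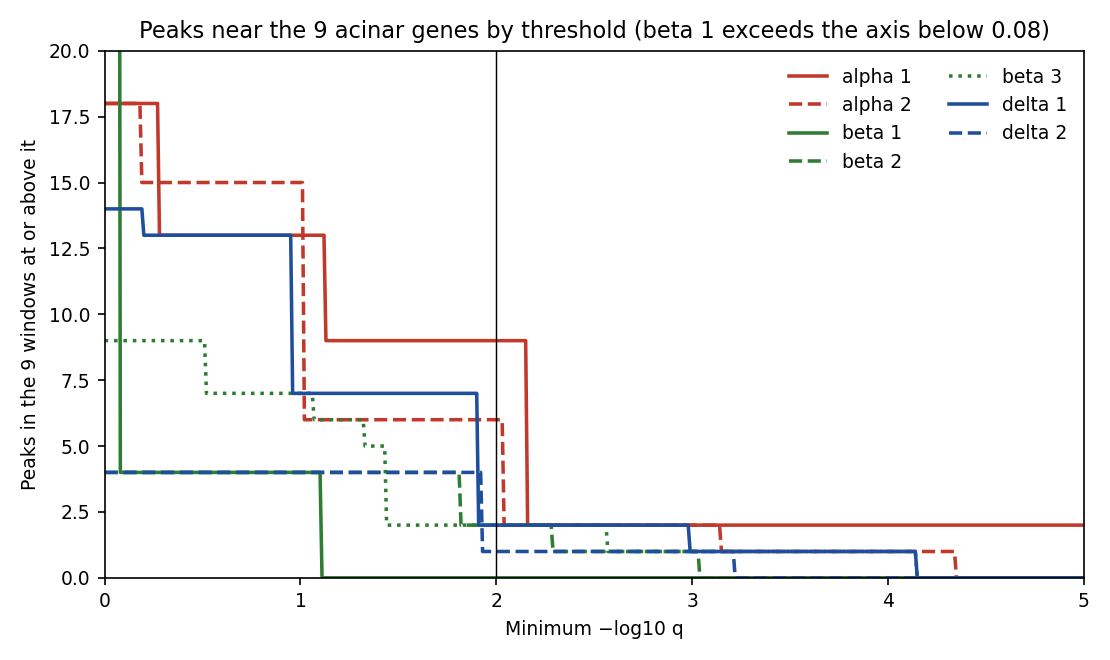
Number of peaks in the 9 windows (vertical axis) that reach each minimum -log10 q (horizontal axis), with a line per library and the vertical line at 2. The curve of alpha 1 drops from 9 peaks just above 2, that of alpha 2 from 6, and those of delta 1 and delta 2 just below 2.

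Compared with all genes, the windows held fewer peaks per 100 kb that reached a -log10 q of 2, though hardly fewer in alpha 1. In the full lists this did not hold for every library. In the full lists the acinar windows held 6.21 peaks per 100 kb in alpha 2, against 5.86 for all protein-coding genes. In beta 1 they held 19.7 against 18.6, and in every other library they lay below all genes. Counting peaks that reached a -log10 q of 2, all protein-coding genes had 3.15 and 3.09 per 100 kb in the alpha libraries, 1.63, 1.83, and 2.36 in the beta libraries, and 2.92 and 2.66 in the delta libraries. The 9 acinar genes had 3.10 and 2.07 in alpha, 0, 0.690, and 0.690 in beta, and 0.690 and 0.345 in delta cells. These lay below the value of all genes in each of the 7 libraries, but in alpha 1 the values were nearly equal (3.10 against 3.15). A member had a median of 3 such peaks summed over the 7 libraries, between 0 for Cpa1 and 5 for Rbpjl. The median was 9 for all genes, and 68.6% of all genes had more than 5. These counts are not adjusted for window length. Member windows were shorter on average, with 290 kb over 9 genes against 1.51e+06 kb over 21911 genes. Genes for 9 pan-endocrine transcription factors, such as Neurod1 and Isl1, had 3.23 to 9.16 peaks per 100 kb over the 7 libraries, above the acinar genes in every library. At 1134 olfactory receptor genes, which encode the odour receptors of the nose, the range was 0.405 to 0.761. In the beta and delta libraries the acinar values, 0 to 0.690, overlapped this range, and in both alpha libraries they lay above it. This was read at the line of 2 alone, and no value at 1.8 is given for the olfactory receptor genes.

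**Figure D3:**
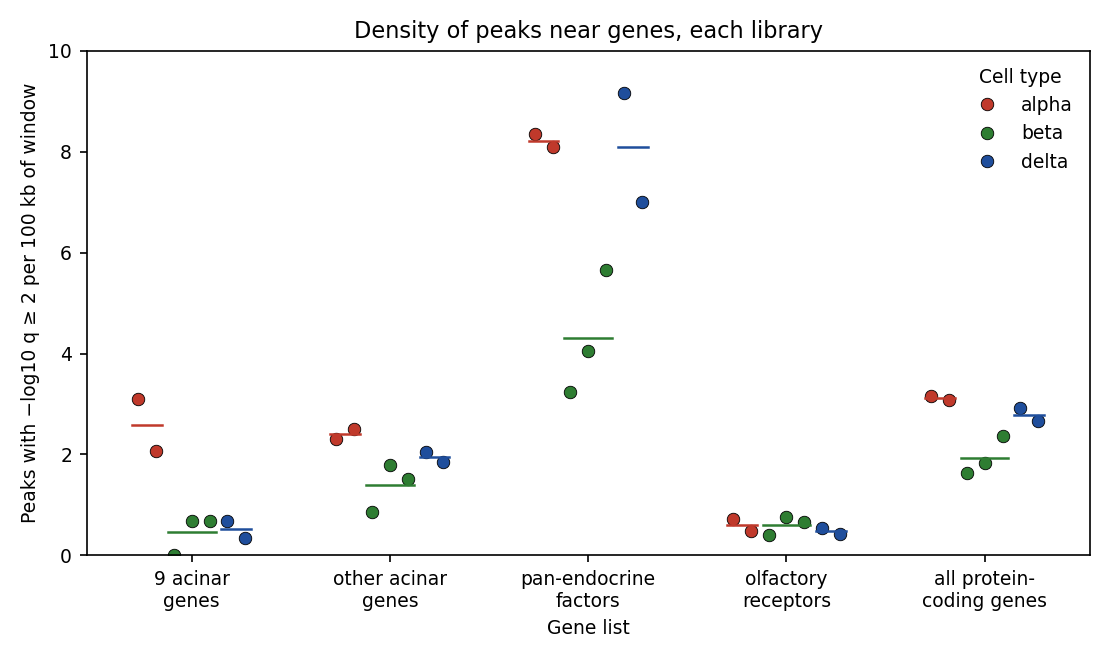
Peaks that reached a -log10 q of 2, per 100 kb of window (vertical axis) for 5 gene lists (horizontal axis), each point a library and each short line the mean of a cell type. The acinar genes lie between 0 and 3.10, below all protein-coding genes in every library and below the pan-endocrine factors. In alpha 1 they are nearly equal to all protein-coding genes (3.10 against 3.15).

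Among the peptidases, Cpa1, carboxypeptidase A1, which trims hydrophobic residues from the ends of dietary peptides, was the only member without a peak of a -log10 q of 2. It lies at chr6:30639218-30645363 on the plus strand (ENSMUSG00000054446.8). It had 2 and 1 peaks in the alpha libraries, 3, 0, and 0 in the beta libraries, and 1 and 0 in the delta libraries. The highest were 1.13 in alpha 1, 1.02 in alpha 2, and 0.951 in delta 1, all of them downstream, the last pair in exons of the neighbouring gene Cep41. Each of the 7 peaks stood alone, with no overlap between libraries, and none lay in the gene body.

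Cpb1, carboxypeptidase B1, which removes basic residues, lies at chr3:20248264-20275733 on the minus strand (ENSMUSG00000011463.5). Its window of 47470 bp held 2 and 3 peaks in alpha cells, 13, 2, and 2 in beta cells, and 4 and 1 in delta cells. It was the only member with a peak in the window of all 7 libraries. The best -log10 q was 2.16 and 1.02 in alpha, 0.0774, 2.29, and 1.43 in beta, and 1.91 and 1.93 in delta cells, so the cell types overlapped. An intronic region 19037 bp past the start was called in alpha 1 (2.16), beta 3 (1.43), and delta 1 (1.91). The nearest start to this region belongs to Cpa3, a mast cell carboxypeptidase gene whose own start had a peak in 0 libraries.

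Ctrb1, chymotrypsinogen B1, the precursor of chymotrypsin, held the highest peak of all 9 genes. It lies at chr8:111686519-111691010 on the minus strand (ENSMUSG00000031957.6). The window had 2 and 3 peaks in alpha cells, 6, 0, and 1 in beta cells, and 0 and 0 in delta cells, and the best -log10 q was 25.1 and 2.03 in alpha, 1.10 in beta 1, and 2.57 in beta 3. The peak of 25.1 in alpha 1 lay upstream of the start, outside the 1 kb next to it, with a fold enrichment of 15.1 and at percentile 96.7 of its list by -log10 p. The same place was called in alpha 2 with a -log10 q of 1.02 and a fold of 2.93, and in beta 1 with 0.0774, so the height was found in 1 of the 2 alpha replicates. In the RefSeq genome most of this region is marked as repeat. A second peak of alpha 1, 6629 bp past the start with a -log10 q of 5.81, is 90.6% repeat and was again called in beta 1 at 0.0774. The peak of beta 3 with 2.57 lay in an exon of Ctrb1 and holds 0% repeat. In all windows together 26.8% of the bases are repeat. Of the 20 merged regions with a -log10 q of 2, 6 were more than 50% repeat, 3 of them at Ctrb1, 2 at Rbpjl, and 1 at Ptf1a. How reads that match several places were handled is not given in the sources used here, and the part of repeats in these peaks was not tested.

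Cela2a and Cela3b encode serine proteases of the elastase family and had no peak shared by all replicates of a cell type with a -log10 q of 2. Cela2a lies at chr4:141814962-141826160 on the minus strand (ENSMUSG00000058579.5). It had 0 peaks in both alpha libraries, 2, 0, and 2 in beta cells, and 1 and 0 in delta cells. Its highest, 2.98 in delta 1, lay 16124 bp past the start in an intron of Casp9, where beta 1 also had a peak at 1.10. Cela2a was thus the only member without a peak in either alpha library.

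Cela3b lies at chr4:137420999-137430540 on the minus strand (ENSMUSG00000023433.8), with 2 and 2 peaks in alpha, 5, 0, and 1 in beta, and 0 and 2 in delta cells. A region 2491 bp upstream of its start was called in 4 libraries, the most of any region in the 9 windows. Its -log10 q was 1.13 in alpha 1, 2.03 in alpha 2, 0.0774 in beta 1, and 1.93 in delta 2. Past the far end of the gene, alpha 2 had a peak of 3.15 and delta 2 one of 3.21, at 18029 and 18289 bp from the start. They lie next to each other without overlapping and are nearer to the start of the related gene Cela3a. At the Cela3b start itself beta 3 had a peak of 1.43.

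Of the lipases, Cel, carboxyl ester lipase, which works in the presence of bile salts, lies at chr2:28555795-28563403 on the minus strand (ENSMUSG00000026818.5). It had 2 and 2 peaks in alpha, 7, 2, and 1 in beta, and 1 and 0 in delta cells. None of them overlapped its gene body. The highest, 3.04 in beta 2, lay 15417 bp past the start in an intron of Ralgds and was also called in alpha 2 (1.02) and delta 1 (0.951). A peak of 2.16 in alpha 1 lay 4673 bp upstream, where Gtf3c5 is annotated, and overlapped one of beta 1. Each cell type thus had a peak in the Cel window. The only delta peak was the one in Ralgds, at a place shared with alpha 2 and beta 2.

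Pnlip, pancreatic lipase, the main enzyme of fat digestion, gave the most repeated of the stronger regions. It lies at chr19:58652498-58681788 on the plus strand (ENSMUSG00000046008.8), though the RefSeq start is at 58670365, 17867 bp downstream of this 5′ end. The window had 2 and 4 peaks in alpha, 9, 0, and 0 in beta, and 3 and 0 in delta cells. A region at chr19:58650031-58650427, intergenic and 2269 bp upstream of the annotated 5′ end, had a -log10 q of 2.16 in alpha 1, 4.34 in alpha 2, and 4.14 in delta 1. The other 4 libraries, all 3 of beta cells among them, had no peak there. It was the 1 region of 98 in the 9 windows at which at least 2 libraries reached a -log10 q of 2, and it contains no repeat. The 300 bases at chr19:58650080-58650379, plus strand, are shown because of this, and capitals mark a match to the same paired pattern, with a gap of 16 bases on the opposite strand.
Pnlip upstream region: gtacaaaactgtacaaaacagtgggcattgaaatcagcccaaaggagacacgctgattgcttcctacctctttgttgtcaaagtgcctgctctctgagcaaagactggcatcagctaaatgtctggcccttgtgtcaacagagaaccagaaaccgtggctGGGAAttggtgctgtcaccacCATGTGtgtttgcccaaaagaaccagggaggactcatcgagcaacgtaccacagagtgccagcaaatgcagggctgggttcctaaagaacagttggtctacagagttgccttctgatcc
An intronic region 22301 bp past the 5′ end was called in alpha 2 (1.02) and delta 1 (1.91). Within 1 kb of the RefSeq start and the other annotated starts no further library had a peak.

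**Figure D4:**
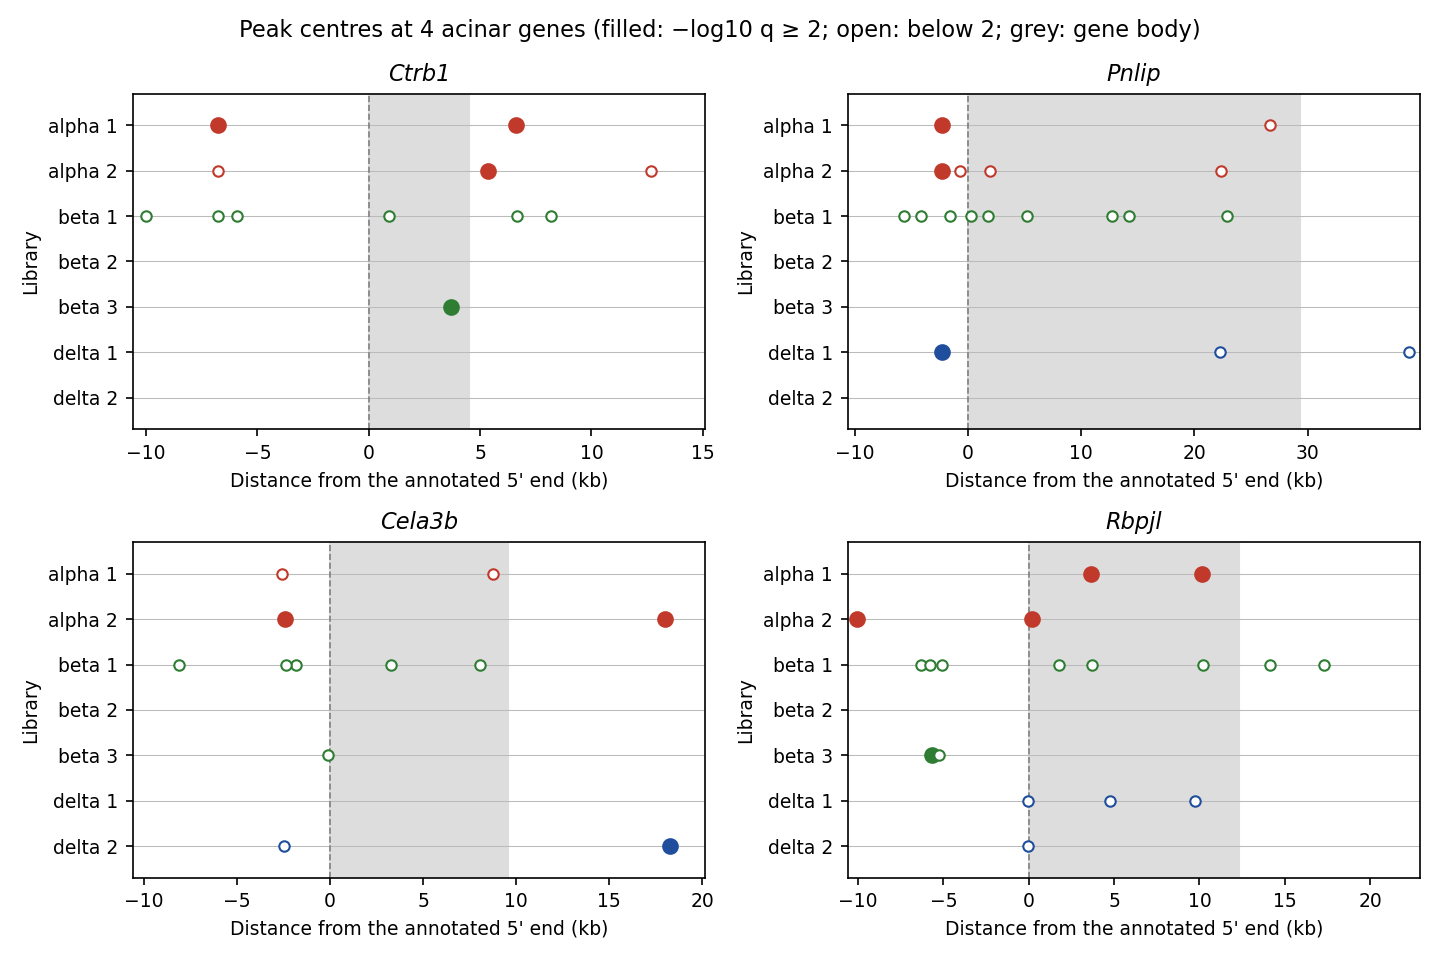
Centre of every peak (filled, -log10 q of at least 2; open, below) in each library (vertical axis) against the distance from the annotated 5′ end in kb (horizontal axis) for Ctrb1, Pnlip, Cela3b, and Rbpjl; grey marks the gene body. The peaks of alpha 1, alpha 2, and delta 1 line up 2269 bp upstream of Pnlip, and those of alpha 2, delta 1, and delta 2 at the start of Rbpjl.

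Ptf1a, the helix-loop-helix subunit that starts and maintains the acinar program, lies at chr2:19445663-19447501 on the plus strand (ENSMUSG00000026735.2). It had 4 and 1 peaks in alpha, 4, 0, and 0 in beta, and 1 and 0 in delta cells. Within 1 kb of the start there was a peak in both alpha libraries, 317 bp upstream in alpha 1 and 93 bp past the start in alpha 2, and none in the other 5. These were among the weakest of their lists, with a -log10 q of 0.278 and 0.182 and at percentiles 0.982 and 8.94 by -log10 p, and they did not overlap each other. A start peak present in 2 or more replicates of a cell type and absent from every replicate of another was then required. By this rule Ptf1a was the 1 member called for alpha and not beta, as were 1.29% of all genes, and for alpha and not delta, as were 1.2%. A single peak of Ptf1a reached a -log10 q of 2, in alpha 1 at 2370 bp upstream, in a region that is 60.2% repeat.

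Rbpjl, the subunit of the mature complex, lies at chr2:164403141-164415448 on the plus strand (ENSMUSG00000017007.9). It had 2 and 2 peaks in alpha, 8, 0, and 2 in beta, and 3 and 1 in delta cells. Around its start, the region chr2:164402988-164403460 was called in alpha 2 (-log10 q 2.03), delta 1 (1.91), and delta 2 (1.93), and in alpha 1 and the 3 beta libraries it was not. Rbpjl was the 1 member called for delta and not beta, as were 0.808% of all genes. The highest Rbpjl peak was in a beta library, however, at 4.15 in beta 3, 5710 bp upstream in Matn4, a neighbouring matrix protein gene, where beta 1 also had a call. The peaks of alpha 1, both at 2.16, lay in introns of Rbpjl, in regions that are 66.9% and 81.4% repeat. At the start of Rbpjl the delta and beta libraries separated by presence, a call that was lost at a -log10 q of 2, and the alpha libraries were split.

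The CpG content of the promoters was counted as well, with no test. Ptf1a had 23 CpG dinucleotides in its 300 bases, Rbpjl 14, and Pnlip 11, above the median of 7 over 32851 promoters. The other 6 genes had between 1 (Ctrb1) and 5 (Cel). The start peaks called in 2 replicates of a cell type, those of Ptf1a and Rbpjl, were at the members with the most CpG. Neither call held at a -log10 q of 2, and the 2 Ptf1a peaks did not overlap. Cel (5 CpG), Cela3b (4), and Ctrb1 (1) also had a start peak, in 1 library each, and Pnlip had one in 2 libraries, alpha 2 and beta 1. For Pnlip the sequence is that of the RefSeq start, 17867 bp from the 5′ end at which its peaks were counted. With 9 genes this is a description.

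Whether any window differed between the cell types was tested on the rank, by -log10 p, of the best peak of each window in its own list. With the cell type labels exchanged in all 210 ways, the exact permutation p, without direction, was 0.114 for Cpa1 and for Ptf1a, 0.143 for Ctrb1, and 0.171 for Cel. It was 0.4 for Pnlip, 0.562 for Cela3b, 0.581 for Rbpjl, 0.657 for Cela2a, and 0.924 for Cpb1. No member reached 0.05, against 8.65% of all genes, and after adjustment over the 21911 genes 0 genes did, the lowest adjusted value being 0.514. The smallest p that 7 libraries allow is 0.00952, so the design could have given a lower value for a single gene before adjustment. Of the 3 pairwise calls by presence at the start, no member was called for beta cells against alpha or delta cells, as were 2.38% and 2.6% of all genes, or for delta against alpha cells, as were 0.543%. Taking both directions together, each pair of cell types had 1 member called, against 3.67% of all genes for alpha and beta, 1.75% for alpha and delta, and 3.41% for beta and delta cells.

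When the flanks were left out, Rbpjl gave an exact permutation p of 0.00952, and 0.616 after adjustment over all genes. Its gene body held 2 and 1 peaks in alpha, 3, 0, and 0 in beta, and 3 and 1 in delta cells, and the 3 peaks of beta 1 were all at a -log10 q of 0.0774. An unadjusted p of at most 0.05 was found at 6.98% of all genes, and the other 8 members gave 0.543 or more. This value rested on how positions in lists of unequal length were counted. Beta 2 and beta 3 had no peak in the gene body and took the rank of a missing peak, and the rank of 269106 in beta 1 is that of its tied peaks. As a percentile of its own list, beta 1 was at 48.1, above delta 2 at 35.2. With percentiles in place of ranks, an alternative added after this was seen, the exact permutation p of Rbpjl was 0.162 in the gene body (1 after adjustment), and 0 members reached 0.05, against 2.76% of all genes. Over the full windows the percentiles also gave 0 members, the lowest being Ctrb1 at an exact permutation p of 0.286, against 3.41% of all genes.

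Merged across the 7 lists, the peaks of the 9 windows formed 98 regions, of which 79 came from 1 library, 45 of these from beta 1. These shares, 80.6% and 45.9%, were near those of all 834695 merged regions, 84.0% and 49.8%. There were 19 regions in at least 2 libraries and 6 in at least 3. Both alpha replicates shared 3 regions, at Cela3b, Ctrb1, and Pnlip, at least 2 beta replicates shared 3, and the delta replicates shared 1, at the start of Rbpjl. The shared beta regions were in an intron of Cpb1 and, as a pair, upstream of Rbpjl in Matn4. By position, 25 of the 124 peaks touched an exon, 52 lay in introns, and 47 between genes, and for 96 of them the nearest start of a protein-coding gene was that of the member. The 22 peaks with a -log10 q of 2 lay a median of 5494.5 bp from the 5′ end of their member, and 6 overlapped its gene body.

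The rest of the acinar program was looked at in 36 further acinar genes, 18 enzymes, 11 other secretory genes, and 7 factors. Of these 36, 19 had no peak at the start in any library, among them the enzyme genes Cela1, Ctrc, and Amy2a5, against 17.3% of all genes. A start peak that reached a -log10 q of 2 in 2 or more replicates was present for 4 in alpha cells, 3 in beta cells, and 4 in delta cells, out of 36, against 51.4%, 41.4%, and 48.3% of all genes. Gata6, which also acts in early pancreas development, and Xbp1, a factor of secretory cells in general, had such a peak in all 7 libraries, with a -log10 q of 3.40 to 55.1 and of 4.86 to 23.7. Rnase1, a secreted ribonuclease that vessels also make, reached 3.66 to 10.3 in all 7. Bhlha15, a factor of secretory cells also named Mist1, had a start peak in all 7 and reached 2 in 5 of them. No enzyme gene besides Rnase1 had a start peak with a -log10 q of 2 in any library, whether protease, amylase, or lipase. Rbpj, which takes the place of Rbpjl in the embryonic complex, had no peak at its annotated 5′ end in any library. Only this end was searched for the 36 genes, so a peak at another start of Rbpj would not have been seen. Over their windows these 36 genes had 0.859 to 2.51 peaks per 100 kb that reached a -log10 q of 2. Both alpha libraries had the highest values, 2.31 and 2.51, as they did over all protein-coding genes (3.15 and 3.09). With the line at 1.8 this order did not hold, since delta 1 (2.91), delta 2 (2.84), and beta 2 (2.84) then lay above both alpha libraries (2.38 and 2.71).

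The 3 protein-coding genes outside the lists whose best window rank over the 7 libraries ran most like the mean of the 9 members were Jcad (r = 0.993), Fes (r = 0.989), and Comp (r = 0.984). These are Pearson correlations over 7 libraries that share their list lengths, picked as the highest of all genes, and they are given as a description.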

How the data were processed

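ATAC-Seq was performed on FACS-sorted alpha, beta, and delta cells, and the peak lists of 7 libraries were analysed. The authors checked single-end reads with FastQC, used Trimmomatic for trimming, and aligned with Bowtie 2 to an mm10 (GRCm38) index that leaves out the mitochondrial genome. Picard served to mark duplicates, blacklisted regions were taken out, and MACS2 called the peaks, per library. Tool versions and the peak threshold are not given in the sources used here. The -log10 p and -log10 q values and the fold enrichment, a ratio of signal to local background, come from MACS2, run by the authors on that library alone. The deposited score, 10 times the -log10 p, was not used. Replicates are labelled as biological, and groups were taken from the labels.

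Rows that repeat an interval were counted once. Windows and starts came from GENCODE M21. A start peak overlaps the 5′ end of a gene or the 1 kb before or after it. Peaks were ranked by -log10 p within a list, with ties at their mean rank, and a window without a peak took the length of the longest list plus 1. Cell types were compared by exact permutation over libraries, with Benjamini-Hochberg adjustment over all genes. Read counts per region, which the differential test of the study needs, are not part of these lists, so that test was not run. A peak list holds no reads, so no limit of detection was computed for a missing peak. Read totals in the supplement of the study were not used as values.

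All 9 members are named, with the 4 further acinar genes that have a start peak in most libraries and the 3 genes of the most similar pattern. Other genes named were neighbours, hormone genes, or examples chosen after their values were seen. The members, gene lists, and rules were chosen with earlier results of these data known. Of 37 further acinar genes, 36 matched the annotation. Alternatives were percentiles in place of ranks, other thresholds, overlaps, windows, and starts, a replicate block, and the removal of single libraries. Python 3.11.15, numpy 2.4.6, pandas 2.3.3, and matplotlib 3.10.9 were used. The sequence of 1 region is not reported here. The steps were tested on simulated data, and 63 window counts were compared with bedtools, of which 0 differed.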

Additional observations from a re-analysis of the deposited data

How the results depend on the processing

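Among peaks that reached a -log10 q of 2, the mean number in the 9 windows for alpha, beta, and delta cells came to 7.5, 1.33, and 1.5 instead of 18, 23.3, and 9. With the 50000 peaks of lowest p of each list it was 7, 3.33, and 3, and with a -log10 q of at least 1.8, an alternative chosen after seeing the data, 7.5, 2, and 5.5. With at least 50% of the peak inside the window it was 17.5 in alpha cells. Gene bodies with no flank gave 5.5, 8.67, and 4, flanks of 25 kb gave 37.5, 49, and 24, and peaks nearest to the member's own start gave 14.5, 18.3, and 6. Beta cells, above alpha and delta cells in the full lists, were thus below both at a -log10 q of 2 or 1.8 and without beta 1, and below alpha cells with 50000 peaks. Leaving out each library in turn, the mean ranged from 18 to 18 in alpha, from 6.5 (without beta 1) to 33 (without beta 2) in beta, and from 4 (without delta 1) to 14 (without delta 2) in delta cells.

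The member with a start peak in 2 alpha replicates, Ptf1a, was lost with a -log10 q of 2 or of 1.8 and with 50000 peaks, which left 0, and a start window of 3 kb gave 3 in alpha and 2 in beta cells. The delta member, Rbpjl, was lost with a -log10 q of 2 and with 50000 peaks (0), and any annotated start gave 1 in beta cells. Of the members called for one cell type and not another, alpha and beta gave 0 with a -log10 q of 2 or 1.8, with 50000 peaks, and with 3 kb. Alpha and delta gave 0 with a -log10 q of 2 or 1.8 and with 50000 peaks. Beta and delta gave 0 with a -log10 q of 2 and with 50000 peaks, and 2 with any annotated start. With a library left out, a pair of replicates became a single list, and the members with a start peak ranged from 1 to 3 in alpha (3 without alpha 1), from 0 to 0 in beta, and from 1 to 1 in delta cells. Pairwise calls then ranged from 1 to 2 for alpha and beta (2 without alpha 1), from 1 to 2 for alpha and delta (2 without either alpha library), and from 1 to 1 for beta and delta.

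The count of members with an exact permutation p of at most 0.05 was 0 in 15 of 16 alternatives and 1 (Rbpjl) with gene bodies alone, where percentiles in place of ranks gave 0. It was 0 to 0 with a library left out, where the smallest possible p reached 0.0667 without a beta library, so that 0.05 could not be reached there. In the replicate block, with cell types exchanged only among libraries of the same replicate number and without beta 3, the 36 assignments allow no p under 0.167, and 0 members were called. Samples with the same number deviated together with a correlation of -0.0143 for alpha and beta and 0.115 for alpha and delta. For beta and delta it was -0.0561. With so few replicates per cell type, these values cannot tell whether libraries of the same number share animals or a batch, and this was not tested. Given the crosses, alpha and delta libraries came from different animals. In the study's quality sheet, the beta libraries differ in sex from the alpha and delta libraries of the same number, if its numbers are those of the labels. The causes of the other changes were not tested.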

Other observations

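Markers of other lineages were counted in the same way, by a start peak with a -log10 q of at least 2 in at least 2 replicates. Of 8 duct genes, 1 was called in alpha and in beta cells (Epcam, which endocrine cells also express) and 3 in delta cells (Epcam, Cftr, and Spp1). Of 7 endothelial genes, 1 was called in alpha cells (Cldn5, a junction protein) and 0 in beta and delta cells. Of 8 immune genes and 5 mesenchymal genes, 0 were called in any cell type. Of the 9 pan-endocrine factors, 8 were called in alpha cells, 6 in beta cells, and 8 in delta cells. Of all protein-coding genes, 51.4%, 41.4%, and 48.3% were called in alpha, beta, and delta cells.

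Per 100 kb of window, peaks that reached a -log10 q of 2 at the immune genes ranged from 0.982 to 1.57 over the 7 libraries, at the endothelial genes from 0.721 to 2.89, at the mesenchymal genes from 0.811 to 2.43, and at the duct genes from 0.939 to 3.52.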
